A study of Mus musculus with 8 samples.

Results

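The heat shock proteins and DnaJ chaperones were taken as the rows of the deposited expression table whose gene name began with Hspa, Hspb, Hspd, Hspe, Hsph or Hsp90, or with Dnaja, Dnajb or Dnajc followed by a digit. Names with -ps were left out. Of 52636 rows, 86 matched and 12 of those carried -ps, which left 74 genes. The table held RNA-seq of 8 libraries of sorted mouse splenic CD4+ T cells, 2 in each of 4 groups. Conventional T cells (Tconvs) and regulatory T cells (Tregs) were sorted by the GFP of a Foxp3 eGFP reporter from mice aged 6 to 8 weeks, 200000 cells per library, after magnetic removal of other cells. Antibody to CD25 was used to deplete Tregs when Tconvs were purified and not when Tregs were. Control mice were CD27+/- by the extraction protocol and the study's methods, while their sample descriptions say WT and their columns in the table are named KO, so the libraries without the transgene were taken as these controls. CD70Tg mice were CD27+/- as well by the same sources and carried a Cd70 transgene under the CD11c promoter, so that dendritic cells express the ligand of CD27, a costimulatory receptor of T cells. By those sources all 4 groups shared the loss of 1 Cd27 allele and the Foxp3 reporter. The comparisons asked which chaperone genes differed between CD70Tg and control mice in each subset, whether the subsets differed in this, and how control Tregs differed from control Tconvs. The labels do not say that the 2 libraries of a group came from separate mice, so p-values measure only the spread between these libraries. For each gene that spread was estimated in part from all genes tested.

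Molecular chaperones bind unfolded protein chains and help them to reach or keep their fold. Hsp70 proteins do so in cycles of ATP hydrolysis that are started by DnaJ (Hsp40) proteins and reset by exchange factors such as the Hsp110 proteins, while Hsp90 acts late on kinases, receptors and other client proteins. Heat shock factors raise the inducible cytosolic members under heat or protein damage, the unfolded protein response raises those of the endoplasmic reticulum (ER), and a separate set folds proteins imported into mitochondria. Activated lymphocytes make more protein and generally need more of this capacity.

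Values were reads per gene that the authors had scaled to 20000000 per library and rounded up, and a value below is on that scale. The steps between low values put the reads on genes at 6940000 to 33240000 in Tconv libraries and at 1900000 to 4550000 in Treg libraries, so that low values were less precise in Tregs. The depth of the 2 deepest libraries, where steps are near or below 1, is less certain. A value equal to 3 reads, the limit that a count of 0 allows, ranged from 1.8 in the deepest library to 31.5 in the shallowest, and covers counting error only. Foxp3, the defining gene of Tregs, averaged 1268 ± 324 (SD, n = 2) in control and 1227.5 ± 81.3 in CD70Tg Tconvs, and 19935.5 ± 235 and 21223.5 ± 203 in the corresponding Tregs, as the labels have it. Of the 74 genes, 58 reached a value of 60 in at least 2 libraries and were tested.

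The binding letters of the 2 stress responses were looked up in RefSeq promoters of GRCm38.p6, which run from 250 bases before to 50 after each start site. A promoter was found for 60 of the 74 genes, and some genes had more than 1. The heat shock element was searched as GAA, TTC and GAA with 2 bases of any kind between each, on both strands, and stood in 0.603% of all 32851 promoters and in 6 of the 77 promoters of the 60 genes (7.79%), which belong to 4 genes, Dnajb6, Hspd1, Hspe1 and Hsph1. The ER stress response element was searched as CCAAT and CCACG with 9 bases of any kind between them, on both strands, and stood in 0.119% of all promoters and in 3 of the 77 (3.9%), which belong to 3 genes, Dnajc3, Hsp90b1 and Hspa5. The sequences below are shown because they belong to the genes whose values are set side by side in the mitochondrial and ER results. They are on GRCm38.p6 and run 5′ to 3′ on the strand of the gene, with the matches in capitals. Hspe1 and Hspd1 lie head to head on chromosome 1. A stretch with 2 overlapping matches, in an exon of Hspd1 by GENCODE, lies before the RefSeq start of Hspe1 and before 1 of the 2 RefSeq starts of Hspd1. The other Hspd1 promoter held no match. The Hspa5 match is also in an exon by GENCODE, so these sequences are kept short. A match describes letters and is not a measured binding site, and elements that depart from these exact letters were not searched for. Of the genes classed below as heat-inducible, only Hsph1 held a match to the heat shock element. The promoters of Hspa1a, Hspa1b, Dnajb1, Dnaja1 and Dnajb4 held none by this strict search, and Hsp90aa1 had no promoter here.
Hspe1, chr1:55088054-55088081, plus strand: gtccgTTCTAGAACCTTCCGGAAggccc
Hspd1, chr1:55088054-55088081, minus strand: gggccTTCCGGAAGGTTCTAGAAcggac
Hspa5, chr2:34772020-34772048, plus strand: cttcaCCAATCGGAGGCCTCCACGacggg
Hsp90b1, chr10:86705510-86705686, minus strand: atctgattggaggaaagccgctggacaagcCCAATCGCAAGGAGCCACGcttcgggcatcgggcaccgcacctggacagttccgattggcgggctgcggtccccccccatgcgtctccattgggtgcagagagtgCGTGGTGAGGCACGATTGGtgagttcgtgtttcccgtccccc
Dnajc3, chr14:118937797-118937875, plus strand: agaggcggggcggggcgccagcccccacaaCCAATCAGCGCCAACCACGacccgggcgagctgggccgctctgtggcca

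Together the 74 genes made up 0.672% to 0.775% of each library. Hspa8 (the constitutive cytosolic Hsp70) and Hsp90ab1 (the constitutive cytosolic Hsp90) held 34.9% to 39.6% of that sum. Per kilobase of exon, the mean value in control Tconvs was 9950 for Hsp90ab1 and 6500 for Hspa8, followed by 2050 for Hspa5, 1780 for Hspe1 and 1360 for Hsp90b1. The order of the 2 leading genes was the same in the other groups. The constitutive pair thus stood well above the inducible members, of which Hsp90aa1 had 1340 per kilobase and Dnajb1 had 1230 in control Tconvs. Of the transcript of Hspa8, 52.7% of the 50-base stretches also occur in other annotated genes, mostly retrocopies, and the same holds for 58.5% in Hsp90aa1 and 44.8% in Hspd1, so the values of these genes may miss reads that the counting could not place.

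CD70Tg and control mice differed in few of these genes. In Tconvs 2 of 58 rose and 0 fell (limma, Benjamini-Hochberg adjusted p under 0.05 over 12816 genes tested), which is 3.45% of them against 8.81% of all genes tested, of which 6.82% rose and 1.99% fell. In Tregs 0 rose and 2 fell, again 3.45%, against 7.4% of all genes tested, of which 3.94% rose and 3.46% fell. The 2 CD70Tg values lay above both controls for 12 of the 58 in Tconvs (23.7% of all genes tested) and 13 in Tregs (22.5%), and below both for 14 in Tconvs (21.4%) and 19 in Tregs (31.2%). In each subset 13 of the 58 (22.4%) had an unadjusted p under 0.05, as did 19.1% of all genes tested in Tconvs and 21.6% in Tregs. Limma-voom on reads recovered from the steps gave 6 higher and 2 lower in Tconvs, 13.8% against 15.7% of all genes, and 0 higher and 1 lower in Tregs, 1.72% against 1.97%. None of the 58 passed with a log2 fold change beyond 1 in either direction, which 4.65% of all genes tested did in Tconvs and 3.6% in Tregs. The median log2 fold change of the 58 genes was 0.01 in Tconvs and -0.03 in Tregs, against 0.01 and -0.05 over all genes tested. Without the deeper CD70Tg Tconv library 0 passed in Tconvs, and without the first control Treg library or either CD70Tg Treg library 0 passed in Tregs. With the 4 Treg libraries fitted alone 14.0% of the chaperone genes passed in Tregs against 13.6% of all genes, and without the first CD70Tg Tconv library 13.8% passed in Tconvs against 12%, so a share below that of all genes did not hold in every fit.

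**Figure D1:**
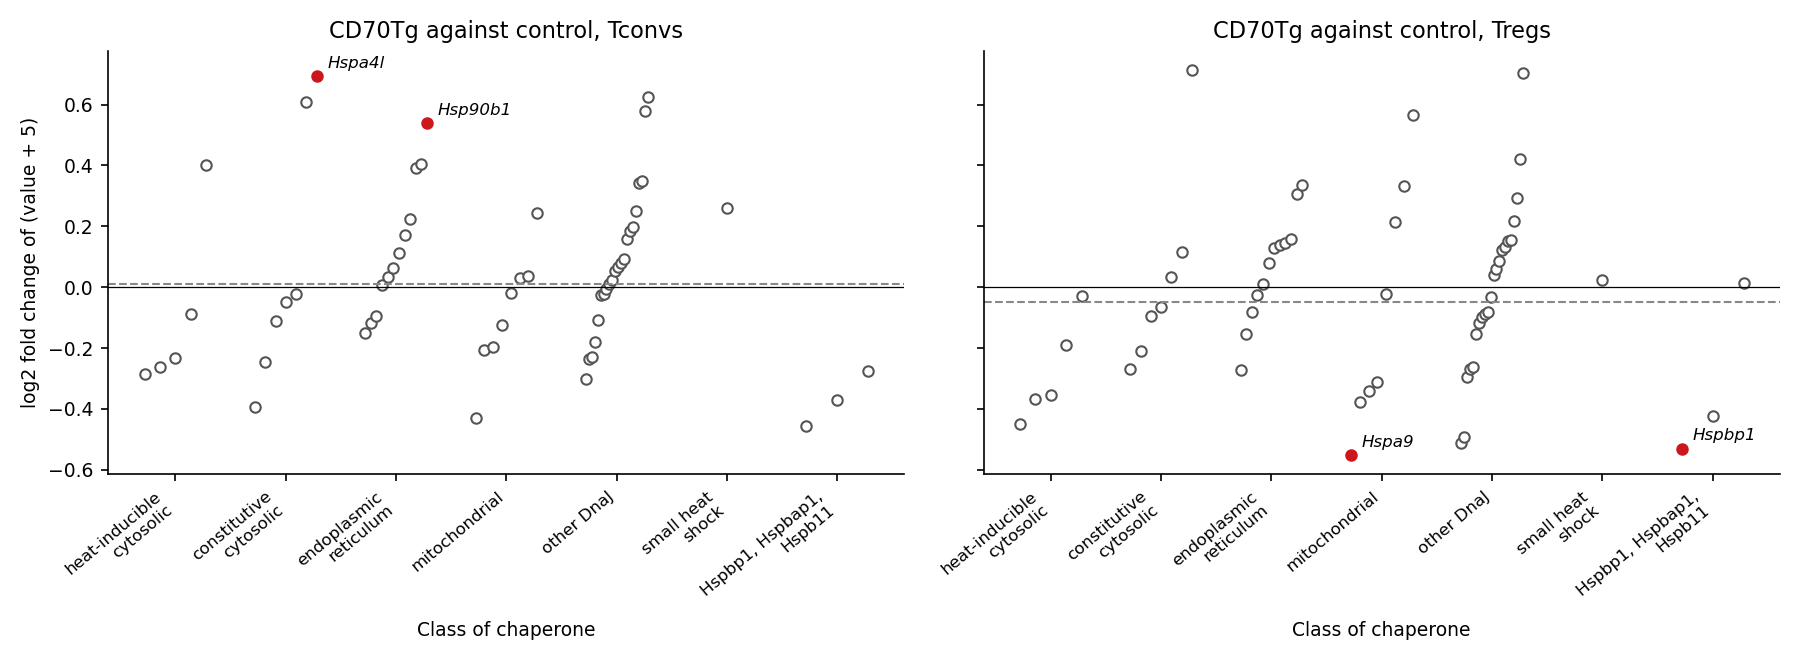
Each point is 1 of the 58 tested chaperone genes, with the log2 fold change of (value + 5) between CD70Tg and control on the y axis and its class on the x axis, for Tconvs on the left and Tregs on the right. Red points passed the test (limma, adjusted p under 0.05) and the dashed line is the median of all 12816 genes tested. Hspa4l and Hsp90b1 are the 2 red points in Tconvs, and Hspa9 and Hspbp1 the 2 in Tregs.

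Of the 7 heat-inducible cytosolic genes, 5 could be tested. None of the 5 passed the test between CD70Tg and control in either subset, against 8.81% of all genes tested in Tconvs and 7.4% in Tregs. In each subset 2 of the 5 (40%) had an unadjusted p under 0.05, as did 19.1% and 21.6% of all genes tested. The 2 in Tconvs went opposite ways, with a log2 fold change of -0.29 for Dnajb1 and 0.40 for Hsph1. The median log2 fold change of the 5 genes was -0.23 in Tconvs and -0.35 in Tregs, against 0.01 and -0.05 over all genes tested. All 5 values in Tregs lay below 0, with Hsph1 at -0.03, as did 7364 of the 12816 genes tested. Hspa1a and Hspa1b, which encode the classical stress-induced Hsp70, stayed low in every library. Hspa1b had values of 15 and 11 in control Tconvs, 29 and 18 in CD70Tg Tconvs, 25 and 14 in control Tregs and 21 and 28 in CD70Tg Tregs. Hspa1a had values of 10 and 5 in control Tconvs, 9 and 11 in CD70Tg Tconvs, 0 and 5 in control Tregs and 21 and 11 in CD70Tg Tregs. Hspa1b was above the value of 3 reads in 7 of 8 libraries and Hspa1a in 3. These 2 genes share most of their sequence with each other and with Hspa1l, since 66.3% of the 50-base stretches of Hspa1a and 62.3% of those of Hspa1b also occur in another gene, so both values are uncertain.

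Hsp90aa1, the inducible cytosolic Hsp90, had values of 5110 and 5393 in control Tconvs and 4893 and 4992 in CD70Tg Tconvs. In Tregs it had 4906 and 4414 in controls and 3448 and 3850 in CD70Tg mice. The Treg groups did not overlap, but the log2 fold change of -0.35 (SE 0.11) missed the threshold with an adjusted p of 0.069 by limma. Dnaja1, an Hsp40 partner of cytosolic Hsp70, had values of 3455 and 3065 in control Tregs and 2466 and 2583 in CD70Tg Tregs (log2 fold change -0.37, SE 0.12, limma adjusted p = 0.08). In Tconvs it had 3403 and 3874 in controls and 3311 and 2876 in CD70Tg mice. With the 4 Treg libraries fitted alone, Hsp90aa1 and Dnaja1 each passed, with a limma adjusted p of 0.015, and without either CD70Tg Tconv library both passed with 0.042 to 0.044. Dnajb4, another Hsp40, had values of 316 and 316 in control Tregs and 262 and 202 in CD70Tg Tregs, with a limma adjusted p of 0.24.

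Dnajb1, the main heat-inducible Hsp40, differed between the subsets more than between genotypes. It had values of 4287 and 3572 in control Tconvs and 3014 and 3418 in CD70Tg Tconvs. In Tregs it had 2465 and 1984 in controls and 2017 and 1865 in CD70Tg mice. All 4 Treg values were below all 4 Tconv values, and control Tregs were lower than control Tconvs by a log2 fold change of -0.82 (SE 0.13, limma adjusted p = 0.00012). The CD70Tg difference was -0.29 in Tconvs and -0.19 in Tregs, and neither passed the test. Hsph1, the inducible Hsp110 exchange factor, was the member of this group with the highest log2 fold change in Tconvs. It had 1617 and 2321 in control Tconvs and 2519 and 2601 in CD70Tg Tconvs, against 1534 and 1691 in control Tregs and 1547 and 1610 in CD70Tg Tregs. The control Tconv libraries were farther apart than those of the other groups, and the Tconv log2 fold change of 0.40 (SE 0.15) did not pass with limma (adjusted p = 0.12), but did with limma-voom (adjusted p = 0.049) and without the second control Tconv library (limma adjusted p = 0.0094). Without the first control Tconv library Hsph1 was also lower in control Tregs than in control Tconvs (log2 fold change -0.53, limma adjusted p = 0.0094), against -0.27 and 0.15 with all libraries.

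**Figure D2:**
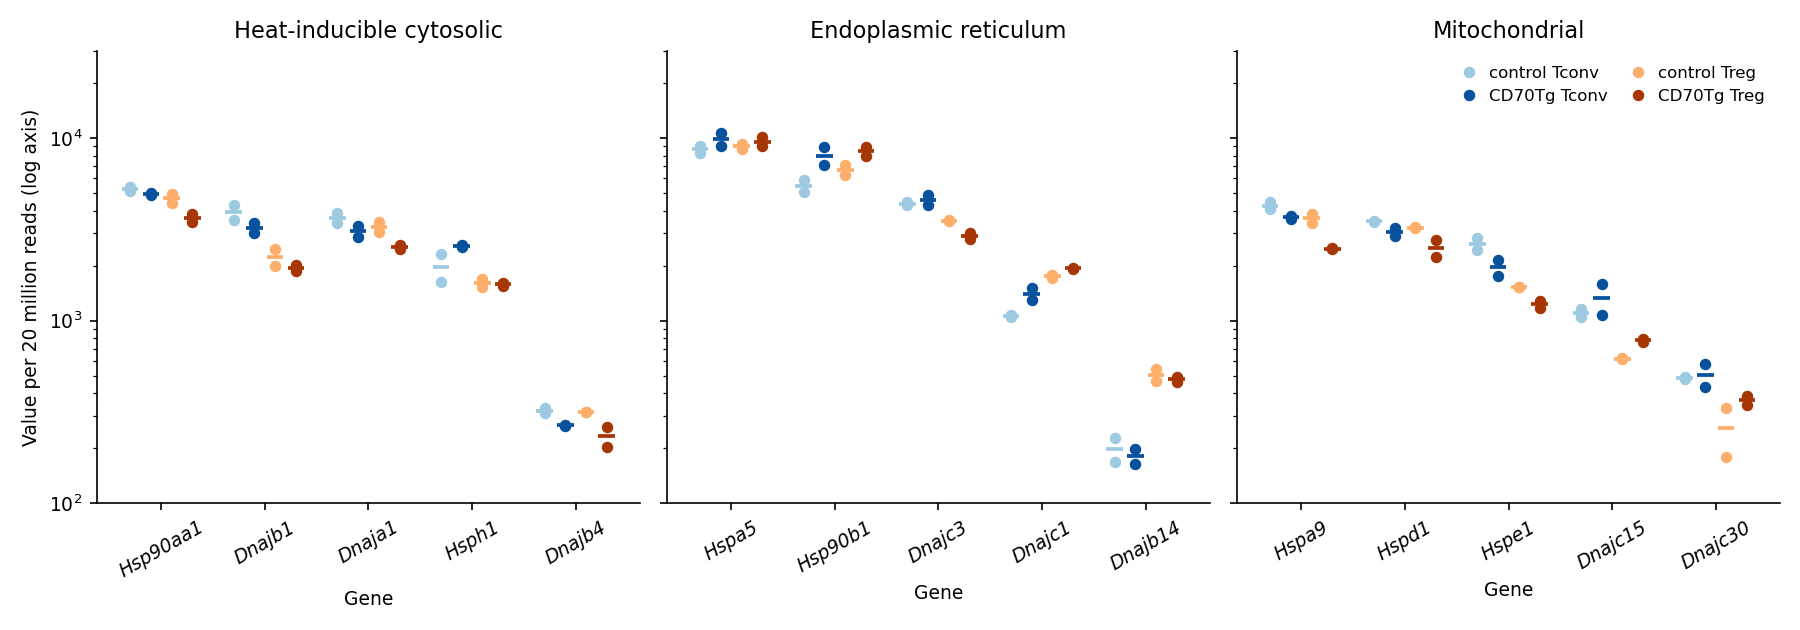
Values scaled to 20000000 reads, on a log axis, for 5 heat-inducible cytosolic, 5 ER and 5 mitochondrial chaperone genes, with 1 point per library and a bar at the mean of the 2 libraries of a group. Dnajb1 lies lower in all 4 Treg libraries than in the 4 Tconv libraries, Dnajb14 lies higher in them, and Hspa9 is lowest in the 2 CD70Tg Treg libraries at 2466 and 2480.

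The constitutive cytosolic group held 9 genes, of which 7 were tested. Hspa8 had values of 26101 and 29852 in control Tconvs, 28342 and 25669 in CD70Tg Tconvs, 24383 and 22667 in control Tregs and 22632 and 25631 in CD70Tg Tregs. Hsp90ab1 had values of 28337 and 31336 in control Tconvs, 30097 and 28627 in CD70Tg Tconvs, 31550 and 30067 in control Tregs and 29047 and 29899 in CD70Tg Tregs. Neither gene passed any of the 4 tests, and the SE of each log2 fold change between groups was 0.13. For Hspa8 the log2 fold change was -0.05 in Tconvs and 0.03 in Tregs between CD70Tg and control, and for Hsp90ab1 it was -0.02 and -0.06.

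Hspa4l, an Hsp110-type relative of Hspa4, was called in this group both by subset and, in Tconvs, by genotype. It had values of 385 and 302 in control Tconvs and 499 and 617 in CD70Tg Tconvs, while Tregs had 971 and 964 in controls and 920 and 1197 in CD70Tg mice. Every Treg value exceeded every Tconv value, and control Tregs were higher than control Tconvs by a log2 fold change of 1.49 (SE 0.18, limma adjusted p = 6.7e-06). In Tconvs Hspa4l rose with the transgene by 0.69 on the log2 scale (SE 0.18, limma adjusted p = 0.022). That call had a limma adjusted p of 0.21 without the second control Tconv library and 0.20 without the deeper CD70Tg Tconv library. In Tregs the log2 fold change was 0.12 (SE 0.18, limma adjusted p = 0.77), and the difference between the 2 responses was -0.58 (SE 0.26, limma adjusted p = 0.43). The gene lies at chr3:40744495-40796103 on the plus strand of GRCm38 by GENCODE. Hspa4, its closest relative, had values of 4231 and 3939 in control Tconvs and 3377 and 3502 in CD70Tg Tconvs, and 4567 and 4239 against 3647 and 3654 in Tregs. Its groups did not overlap in either subset, and the limma adjusted p was 0.22 in Tconvs and 0.16 in Tregs, where it passed as lower with the 4 Treg libraries fitted alone (0.046). Hspa2, at low values of 30 to 142, was higher without overlap in both CD70Tg groups and in control Tregs over control Tconvs. Its log2 fold changes were 0.61 in Tconvs, 0.71 in Tregs and 0.94 between the subsets (limma adjusted p of 0.48, 0.32 and 0.066). Hspa12a, a distant Hsp70 relative, was higher in control Tregs, with values of 112 and 154, than in control Tconvs, with 62 and 70 (log2 fold change 0.94, SE 0.35, limma adjusted p = 0.035), but at a depth where 3 reads are worth 13.2 to 14.5 in those Treg libraries. That call was lost without either control Tconv library (limma adjusted p of 0.16 and 0.095) and without the second control Treg library (0.23).

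All 12 ER chaperones were tested. With the transgene 1 of them, Hsp90b1, rose in Tconvs (8.33%, against 6.82% of all genes tested) and 0 fell, and 0 passed in Tregs (7.4% of all genes tested). An unadjusted p under 0.05 was found for 3 of the 12 in Tconvs (25%, against 19.1% of all genes tested) and 2 in Tregs (16.7%, against 21.6%). Limma-voom called 2 in Tconvs (15.7% of all genes) and 0 in Tregs (1.97%). Hsp90b1 (GRP94), which folds integrins and Toll-like receptors, had values of 5045 and 5910 in control Tconvs and 7102 and 8870 in CD70Tg Tconvs. It rose by 0.54 on the log2 scale (SE 0.13, limma adjusted p = 0.015). In Tregs it had 6260 and 7093 in controls and 7910 and 8945 in CD70Tg mice, a log2 fold change of 0.34 (SE 0.13, limma adjusted p = 0.15). The groups did not overlap in either subset, and the difference between the responses was -0.20 (SE 0.19, limma adjusted p = 0.77). The Tconv call had a limma adjusted p of 0.17 without the deeper CD70Tg Tconv library and 0.13 without the first control Tconv library. With the 4 Treg libraries fitted alone, Hsp90b1 passed there too (limma adjusted p = 0.018). The gene is at chr10:86690209-86705509 on the minus strand by GENCODE. Other genes overlap 15.7% of its exon bases, and the strand setting of the counting is not given in the sources used here.

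The ER Hsp70 showed no such call. Hspa5 (BiP), which binds new chains as they enter the ER, had values of 9060 and 8312 in control Tconvs and 8993 and 10620 in CD70Tg Tconvs. In Tregs it had 9283 and 8748 in controls and 8997 and 10092 in CD70Tg mice. The groups overlapped in both subsets, and the log2 fold change was 0.17 (SE 0.12, limma adjusted p = 0.52) in Tconvs and 0.08 (SE 0.12, limma adjusted p = 0.76) in Tregs. Hspa5 and Hsp90b1, whose promoters both hold the ER stress response element, thus had different outcomes in the test in Tconvs. Dnajc3 (p58IPK), the third gene with that element and a cochaperone of BiP, had values of 4279 and 4464 in control Tconvs, 4291 and 4866 in CD70Tg Tconvs, 3509 and 3534 in control Tregs and 2811 and 3029 in CD70Tg Tregs. It was lower in control Tregs than in control Tconvs (log2 fold change -0.31, SE 0.11, limma adjusted p = 0.032), a call that was lost without any 1 of the 4 control libraries, with limma adjusted p of 0.064 to 0.13. Within Tregs the log2 fold change with the transgene was -0.27 (SE 0.11, limma adjusted p = 0.17).

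Between control Tregs and control Tconvs, 2 of the 12 ER chaperones were higher and 1, Dnajc3, was lower, where 27.5% of all genes tested were higher and 18.4% lower. Dnajb14, a DnaJ protein of the ER membrane, had values of 228 and 168 in control Tconvs and 544 and 469 in control Tregs (log2 fold change 1.35, SE 0.22, limma adjusted p = 0.00014). The CD70Tg values were 199 and 163 in Tconvs and 492 and 463 in Tregs, so the subset gap was also present there. Dnajc1, a DnaJ protein of the ER membrane that binds BiP, had 1044 and 1078 in control Tconvs and 1718 and 1769 in control Tregs (log2 fold change 0.71, SE 0.13, limma adjusted p = 0.00023). In CD70Tg Tconvs it had 1288 and 1507, above both controls, with a limma adjusted p of 0.064, of 0.019 by limma-voom and of 0.021 by limma without the first CD70Tg Tconv library.

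All 8 mitochondrial chaperones were tested. In Tregs 1 of them (12.5%), Hspa9, fell with the transgene and 0 rose, against 7.4% of all genes tested that passed and 3.46% that fell. An unadjusted p under 0.05 was found for 5 of the 8 (62.5%, against 21.6% of all genes tested), of which 4 had negative log2 fold changes and Dnajc30 a positive one. In Tconvs 0 passed, against 8.81% of all genes tested, with 1 of the 8 (12.5%, against 19.1%) at an unadjusted p under 0.05 and 1, Hspe1, called lower by limma-voom (5.18% of all genes). Hspa9 (mortalin), the Hsp70 of the mitochondrial matrix that also drives protein import, had values of 3848 and 3420 in control Tregs and 2466 and 2480 in CD70Tg Tregs. It fell by 0.55 on the log2 scale (SE 0.11, limma adjusted p = 0.0066, and 0.041 by limma-voom). In Tconvs it had 4440 and 4060 in controls and 3602 and 3755 in CD70Tg mice (log2 fold change -0.21, SE 0.11, limma adjusted p = 0.35). The groups did not overlap in either subset, and the difference between the responses was -0.34 (SE 0.16, limma adjusted p = 0.45). Without the first control Treg library the limma adjusted p of the Treg change was 0.14, and it was 0.066 and 0.052 without the first and the second CD70Tg Treg library.

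Hspd1 and Hspe1 encode Hsp60 and its lid Hsp10, which form the folding chamber of the matrix, and share the stretch of promoter shown above. Hspd1 had values of 3499 and 3482 in control Tconvs, 2893 and 3208 in CD70Tg Tconvs, 3256 and 3201 in control Tregs and 2236 and 2763 in CD70Tg Tregs. Hspe1 had values of 2435 and 2827 in control Tconvs, 2156 and 1761 in CD70Tg Tconvs, 1529 and 1520 in control Tregs and 1171 and 1284 in CD70Tg Tregs. Both genes had CD70Tg values below the controls in both subsets, an ordering that 21.4% of all genes tested showed in Tconvs and 31.2% in Tregs. In Tregs the limma adjusted p was 0.074 for Hspd1 and 0.18 for Hspe1, and in Tconvs 0.44 and 0.056, so none passed. Without the first CD70Tg Tconv library Hspe1 passed in Tconvs (limma adjusted p = 0.014), with the 4 Treg libraries fitted alone Hspd1 passed in Tregs (0.021), and without either CD70Tg Tconv library Hspd1 passed in Tregs (0.045 and 0.046). The pair differed in the comparison of subsets. Hspe1 was lower in control Tregs than in control Tconvs by a log2 fold change of -0.78 (SE 0.13, limma adjusted p = 0.00018), whereas for Hspd1 it was -0.11 (SE 0.12, limma adjusted p = 0.47). The 2 genes overlap in 4.2% of the exon bases of Hspd1 and 7.6% of those of Hspe1, on opposite strands.

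All 8 mitochondrial chaperones had lower values in both control Treg libraries than in both control Tconv libraries, an ordering that 33.5% of all genes tested showed. The test was passed by 3 of the 8 (37.5%), Hspe1, Dnajc15 and Dnajc30, all lower, against 18.4% of all genes tested that were lower. With median-of-ratios scaling 7 of the 8 were lower (27% of all genes) and with upper-quartile scaling 7 again (25.2%), since Hspa9, Dnaja3, Dnajc11 and Dnajc19 then passed as well, with limma adjusted p of 0.011, 0.015, 0.0064 and 0.016 under the first. Without the first control Treg library, which left 1 library in that group, fewer of the 8 were called lower, and so were fewer of all genes tested. Dnajc15, a DnaJ protein of the inner membrane at the import motor, had values of 1040 and 1156 in control Tconvs and 622 and 613 in control Tregs (log2 fold change -0.82, SE 0.17, limma adjusted p = 0.00092). Dnajc30, an inner-membrane DnaJ protein linked to respiratory complexes, had 479 and 492 in control Tconvs and 180 and 333 in control Tregs (log2 fold change -0.97, SE 0.25, limma adjusted p = 0.0049). In CD70Tg Tconvs Dnajc15 had 1067 and 1581, which overlapped the controls, and without the first of these libraries it passed there as higher (log2 fold change 0.53, limma adjusted p = 0.043), the opposite direction to Hspe1 in the same fit. In CD70Tg Tregs Dnajc15 had 795 and 762, Dnajc30 had 345 and 387, and Dnajc11 had 1045 and 843 against 811 and 806 in controls. These 3 genes, unlike Hspa9, Hspd1 and Hspe1, had both CD70Tg Treg values above both controls, as did 22.5% of all genes tested. None of the 3 passed, with a limma adjusted p of 0.28, 0.20 and 0.46. Without the second control Treg library Dnajc30 passed as higher (0.042). The 2 control Treg libraries of Dnajc30 were far apart, its subset comparison had a limma adjusted p of 0.11 without the first of them, and 26.2% of its exon bases overlap Bud23 on the opposite strand. The median log2 fold change of the 8 genes between control Tregs and control Tconvs was -0.34, against 0.07 over all genes tested.

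**Figure D3:**
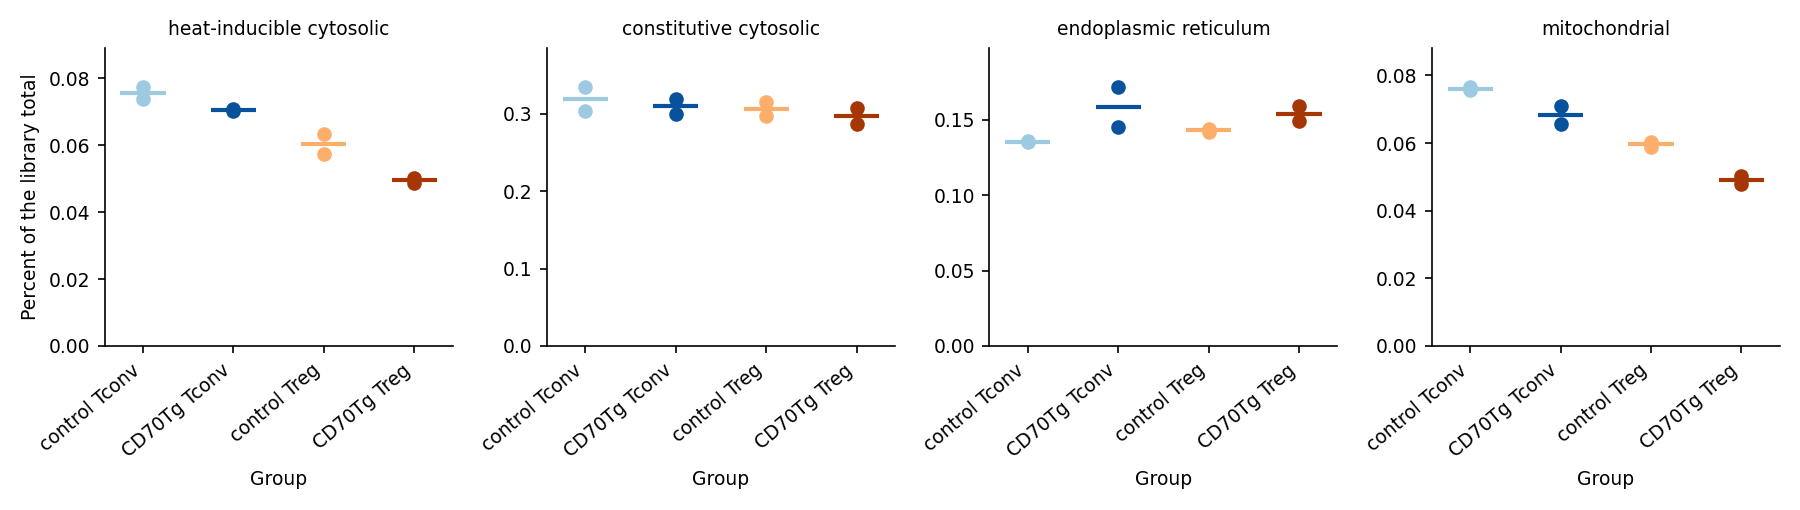
Summed values of 4 classes of chaperone genes as a percent of the library total, with 1 point per library, a bar at the mean of the 2 libraries of a group and y axes that start at 0. The heat-inducible class runs from 0.0737% and 0.0775% in control Tconvs to 0.0487% and 0.0503% in CD70Tg Tregs and the mitochondrial class from 0.0767% and 0.0756% to 0.0479% and 0.0504%, while the ER class lies between 0.135% and 0.172%.

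Summed over their members, the classes took different courses across the 4 groups. The heat-inducible class held 0.0737% and 0.0775% of the library in control Tconvs, 0.0702% and 0.0708% in CD70Tg Tconvs, 0.0634% and 0.0575% in control Tregs and 0.0487% and 0.0503% in CD70Tg Tregs. The mitochondrial class held 0.0767% and 0.0756%, then 0.0658% and 0.0709%, then 0.0604% and 0.0588%, and then 0.0479% and 0.0504%, in the same order of groups. In both classes the 4 groups did not overlap and the order was control Tconvs, CD70Tg Tconvs, control Tregs and CD70Tg Tregs from high to low. The ER class held 0.136% and 0.135%, then 0.145% and 0.172%, then 0.142% and 0.144%, and then 0.149% and 0.159%, and was higher in both CD70Tg groups than in their controls. That order rests on Hsp90b1, since without this gene the ER sums of CD70Tg and control libraries overlap in both subsets. These sums are led by their most abundant genes, and were not tested.

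In the comparison of control Tregs with control Tconvs, 8 of the 58 genes were higher and 11 were lower in Tregs (32.8% of them, against 45.8% of all genes tested). By direction, 27.5% of all genes tested were higher and 18.4% were lower. Over the 58 genes the median log2 fold change was -0.12, against 0.07 over all genes tested. With median-of-ratios scaling the median of all genes moved to -0.055 and the calls to 6 higher and 22 lower, 48.3% of the 58 against 51.1% of all genes. By direction 24.1% of all genes were then higher and 27% lower. With upper-quartile scaling the calls moved to 6 higher and 18 lower, 41.4% against 50.2%, and 25% of all genes were higher and 25.2% lower. The number of lower calls thus depends on the scaling. The groups did not overlap for 17 genes in the higher and 25 in the lower direction, which 42.7% and 33.5% of all genes tested did. With a log2 fold change beyond 1 as well, 5 of the 58 passed (8.62%), against 19.2% of all genes tested. Without the first control Tconv library 12 of the 58 passed, 5 higher and 7 lower, which is 20.7% against 35.1% of all genes.

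**Figure D4:**
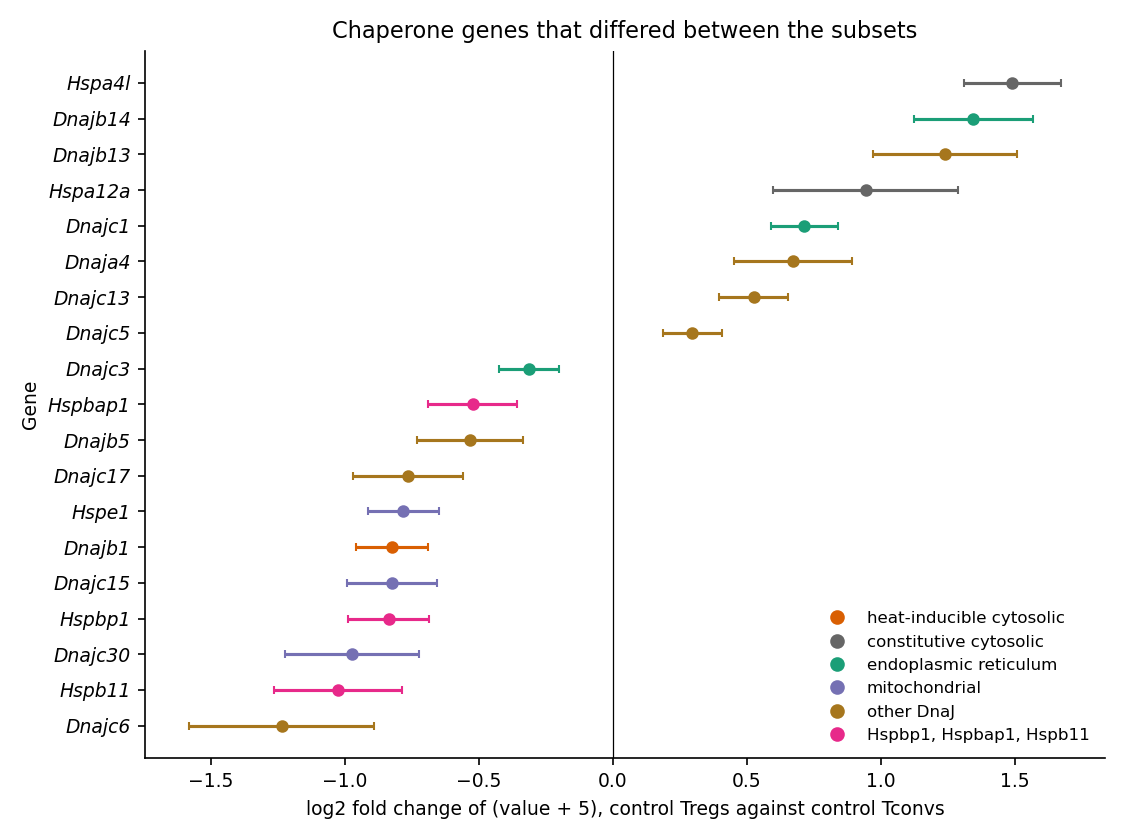
Log2 fold change of (value + 5) between control Tregs and control Tconvs for the 19 chaperone genes that passed the test (limma, adjusted p under 0.05), with bars of 1 standard error on each side and colours for the class. The values run from 1.49 for Hspa4l to -1.23 for Dnajc6.

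The other DnaJ proteins, 28 genes of which 22 were tested, supplied 4 of the higher and 3 of the lower calls between the subsets, against 27.5% higher and 18.4% lower of all genes tested. Between genotypes none passed, against 8.81% of all genes tested in Tconvs and 7.4% in Tregs. An unadjusted p under 0.05 was found for 3 of the 22 in Tconvs (13.6%, against 19.1% of all genes tested) and 2 in Tregs (9.09%, against 21.6%). Limma-voom called 2 of the 22, Dnaja4 (adjusted p = 0.017) and Dnajb6 (adjusted p = 0.034), higher in CD70Tg Tconvs, as it did 10.5% of all genes. Without the first CD70Tg Tconv library both passed with limma (0.0095 and 0.029), as did Dnajc9 (0.027). Dnajb13, a DnaJ protein known from sperm and cilia, had values of 122 and 122 in control Tconvs and 292 and 298 in control Tregs (log2 fold change 1.24, SE 0.27, limma adjusted p = 0.0014). Its CD70Tg values were 153 and 223 in Tconvs and 377 and 620 in Tregs, and with the 4 Treg libraries fitted alone it passed as higher with the transgene there (log2 fold change 0.70, limma adjusted p = 0.046). Its annotated exons overlap those of Ucp2, a mitochondrial carrier on the opposite strand, in 11.2% of their bases, so part of its value may come from that gene. Dnaja4 was also higher in control Tregs (log2 fold change 0.67, SE 0.22, limma adjusted p = 0.021), and 44.1% of its exon bases overlap Wdr61 on the opposite strand. The subset call of Dnaja4 was lost without the first control Tconv library (limma adjusted p = 0.087) or the second control Treg library (0.22).

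Dnajc13, which acts on endosomes, was higher in control Tregs by a log2 fold change of 0.53 (SE 0.13, limma adjusted p = 0.0034), with values of 1602 and 1934 in control Tconvs and 2596 and 2479 in control Tregs. Dnajc5, the cysteine string protein of secretory vesicles, was higher by 0.30 (SE 0.11, limma adjusted p = 0.036), but did not pass with median-of-ratios scaling (limma adjusted p = 0.18) or upper-quartile scaling (limma adjusted p = 0.15), nor without any 1 of the 4 control or the 2 CD70Tg Treg libraries (0.052 to 0.19). Dnajc6 (auxilin), which with Hsc70 uncoats clathrin vesicles, was the gene with the lowest log2 fold change, -1.23 (SE 0.35, limma adjusted p = 0.0082), with values of 141 and 145 in control Tconvs and 54 and 62 in control Tregs. Its limma adjusted p was 0.05 and 0.059 without the first and the second control Tconv library. Dnajc17, a nuclear DnaJ protein, was lower (log2 fold change -0.76, SE 0.20, limma adjusted p = 0.0063, and 0.079 without the first control Tconv library). Dnajb5 was lower (log2 fold change -0.53, SE 0.20, limma adjusted p = 0.038), a call that was lost without any 1 of the 4 control libraries, with limma adjusted p up to 0.25.

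Among 3 genes that match by name but belong to no chaperone family, all were lower in control Tregs than in control Tconvs, as were 18.4% of all genes tested. Hspbp1, an exchange factor that acts on Hsp70, had values of 1460 and 1411 in control Tconvs, 994 and 1236 in CD70Tg Tconvs, 816 and 789 in control Tregs and 512 and 599 in CD70Tg Tregs. The 4 groups did not overlap. It was lower in control Tregs than in control Tconvs by a log2 fold change of -0.84 (SE 0.15, limma adjusted p = 0.0003). With the transgene it fell by 0.53 on the log2 scale in Tregs (SE 0.15, limma adjusted p = 0.041), a call that limma-voom did not make (adjusted p = 0.31) and that was lost without any 1 of the 4 Treg libraries, with limma adjusted p of 0.064 to 0.27. In Tconvs its log2 fold change was -0.37 (SE 0.15, limma adjusted p = 0.17), and with upper-quartile scaling it passed there as lower (0.047). The gene lies at chr7:4660521-4685068 on the minus strand by GENCODE. Hspb11 (Ift25), an intraflagellar transport protein, had 355 and 400 in control Tconvs and 195 and 171 in control Tregs (log2 fold change -1.03, SE 0.24, limma adjusted p = 0.0023). Hspbap1, named for binding a small heat shock protein, had 760 and 785 in control Tconvs and 597 and 482 in control Tregs (log2 fold change -0.52, SE 0.17, limma adjusted p = 0.017), a call lost without either control Tconv library (0.06 and 0.088) or the second control Treg library (0.21). In CD70Tg Tconvs Hspbap1 was called lower by limma-voom (adjusted p = 0.032), and by limma with median-of-ratios (0.048) and upper-quartile scaling (0.049), while limma at the deposited scaling gave an adjusted p of 0.11.

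The small heat shock proteins, which hold unfolded proteins without ATP, were scarce. Of 7 genes only Hspb6 was tested, with values between 63 and 97 in the 8 libraries and no test passed. Hspb1 (Hsp25), the best known of them, had values of 10 and 5 in control Tconvs, 3 and 10 in CD70Tg Tconvs, 20 and 44 in control Tregs and 32 and 28 in CD70Tg Tregs. All 4 Treg values were above all 4 Tconv values, and in the Treg libraries 3 reads were worth 13.2 to 31.5. Of the 50-base stretches of the Hspb1 transcript 51.6% also occur in other annotated genes, so its values are uncertain. The difference was not tested. Hspb3, Dnajc5b and Dnajc5g were listed at 0 in every library. The remaining untested genes, apart from Hspa1a and Hspa1b, reached at most 32.

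The difference between the Treg and the Tconv response to the transgene passed the test for 0 of the 58 genes, against 1.02% of all genes tested. With limma 2 of the 58 (3.45%), Hspa4l and Hspa9, had an unadjusted p under 0.05, as did 10.7% of all genes tested, the lowest adjusted p was 0.43, and limma-voom also called 0. The calls in 1 subset and not in the other are thus not shown to differ between them. The 2 responses do not share control libraries, since each subset had its own.

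Other genes of the folding machinery gave few calls with the transgene. Of 23 ER folding and unfolded protein response genes outside the members, 1 rose in Tconvs (6.82% of all genes tested) and 0 in Tregs (3.94%). Ern1 (IRE1 alpha), the sensor kinase that splices Xbp1, rose in Tconvs by 0.89 on the log2 scale (SE 0.20, limma adjusted p = 0.0081), from 293 ± 2.83 to 557 ± 156 (SD, n = 2). In Tregs it had 443.5 ± 38.9 in controls and 698 ± 32.5 in CD70Tg mice (limma adjusted p = 0.059, and 0.03 with median-of-ratios and 0.022 with upper-quartile scaling). The Tconv call was lost without the deeper CD70Tg Tconv library (limma adjusted p = 0.14). Of 19 tested cochaperone and heat shock factor genes, Bag3, an Hsp70 exchange factor of the stress response, rose in Tregs by 1.01 on the log2 scale (SE 0.22, limma adjusted p = 0.01), from 358 ± 77.8 to 721 ± 119, while it had 388.5 ± 98.3 and 384.5 ± 37.5 in Tconvs. Fkbp5, a glucocorticoid-induced Hsp90 cochaperone, fell in Tregs by 0.55 on the log2 scale (SE 0.13, limma adjusted p = 0.015). Both calls were lost with limma-voom (adjusted p of 0.11 and 0.13), that of Bag3 also without the first CD70Tg or the second control Treg library (limma adjusted p of 0.12 and 0.13), and that of Fkbp5 without any 1 of the 4 Treg libraries (0.067 to 0.13). For neither gene did the difference between the responses pass, with a limma adjusted p of 0.18 for Bag3 and 0.052 for Fkbp5, which passed without the first CD70Tg Tconv library (0.0085). None of the 14 subunits of the cytosolic chaperonin TRiC and of prefoldin, nor of the 12 tested mitochondrial protein quality control genes, passed in either subset with all libraries at the deposited scaling. With median-of-ratios or upper-quartile scaling 1 of the mitochondrial genes, Grpel1, was lower in Tconvs (limma adjusted p of 0.049 and 0.047), and with the 4 Treg libraries fitted alone 1 of the 14, Cct4, a TRiC subunit, was lower in Tregs (0.044).

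Between control Tregs and control Tconvs, the TRiC and prefoldin subunits gave 10 lower and 0 higher calls of 14, with a median log2 fold change of -0.40, where 18.4% of all genes tested were lower, 27.5% were higher and the median was 0.07. All 14 were lower with median-of-ratios and with upper-quartile scaling, and 5 were without the second control Treg library. Pfdn5, a prefoldin subunit, was lower (log2 fold change -0.89, SE 0.12, limma adjusted p = 1.6e-05) and Cct5, a TRiC subunit, as well (log2 fold change -0.67, SE 0.12, limma adjusted p = 0.00021). The cochaperone list gave 8 lower calls and 1 higher of 19, with a median of -0.15, and mitochondrial quality control 3 lower and 0 higher of 12, with a median of -0.09. Of these, Grpel1, the exchange factor of Hspa9, was lower (log2 fold change -0.76, SE 0.13, limma adjusted p = 0.00019). The ER list gave 4 higher and 3 lower calls of 23, with a median of -0.09, among them Edem1, which routes misfolded ER proteins to degradation, higher by 0.62 (SE 0.11, limma adjusted p = 0.00023) and Sec61b, a translocon subunit, lower (log2 fold change -0.72, SE 0.14, limma adjusted p = 0.00049). The lower calls became 9, 5 and 7 for these 3 lists with median-of-ratios scaling, and 8, 5 and 5 with upper-quartile scaling, so their number depends on the scaling.

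Immediate early genes, which respond within minutes to stimulation or to tissue handling, also moved with the groups. Of 10 tested, 4 rose in CD70Tg Tconvs, 1 rose in CD70Tg Tregs, and 6 were higher and 1 lower in control Tregs than in control Tconvs, where 6.82%, 3.94%, 27.5% and 18.4% of all genes tested did so. Their log2 fold changes in CD70Tg Tconvs ran from -0.57 for Nr4a1 and -0.45 for Egr1, which did not pass, to 2.82 for Ier3. Without the deeper CD70Tg Tconv library 0 of them passed in Tconvs, and without the second control Tconv library 2 were higher and 2, Nr4a1 and Egr1, were lower (limma adjusted p of 0.00031 and 0.017). In Tregs 0 passed without any 1 of the 4 Treg libraries. Jun had 347.5 ± 145 in control Tconvs, 1575 ± 1270 in CD70Tg Tconvs, 1127.5 ± 139 in control Tregs and 2858.5 ± 525 in CD70Tg Tregs. Summed markers of other cells moved as well, but some of them are genes that the study reports as raised in the T cells. The NK cell list holds Eomes and Klrk1, and the study found more Eomes+ Tregs and Tconvs in CD70Tg mice. The neutrophil list holds S100a8 and S100a9, which the study places among genes raised in Tregs. These sums thus do not separate other cells from changes in the T cells. The 6 neutrophil markers summed to 188 to 223 in CD70Tg Tregs against 5 to 10 in control Tregs, the 6 erythroid markers to 2450 to 4046 against 571 to 1592, and the 6 NK cell markers to 1469 to 1547 against 120 to 162. In Tconvs the NK cell markers summed to 2978 to 3627 in CD70Tg mice against 882 to 901 in controls, and the neutrophil and erythroid markers overlapped between the groups. The 2 CD8 T cell markers summed to 1563 to 1590 against 681 to 720 in Tconvs and to 631 to 660 against 317 to 417 in Tregs, and the 6 dendritic cell markers to 195 to 345 against 72 to 138 and to 378 to 410 against 99 to 156. The 6 B cell markers summed to 70 to 92 in CD70Tg Tconvs against 160 to 184, and to 432 to 494 in CD70Tg Tregs against 254 to 384. The 6 myeloid cell markers summed to 2784 to 2811 in control and 2792 to 2960 in CD70Tg Tregs, against 1516 to 1543 in control and 1135 to 1456 in CD70Tg Tconvs. They thus differed between the subsets, and between genotypes in Tconvs. The 6 T cell markers summed to 82283 to 88448 in Tregs and to 108560 to 122008 in Tconvs. None of these lists had a marker at 0 in every library, and their part in the chaperone results was not tested. In bulk libraries, fewer cells with a transcript and less of it per cell cannot be told apart.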

How the data were processed

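The RNA was extracted from sorted cells (RNeasy Plus Mini) and made into paired-end libraries with the Ovation SoLo kit. The authors trimmed reads with Trimmomatic 0.36, aligned them with STAR 2.5.3 to mm10 and counted them with HTSeq 0.9.1. The strand setting and annotation release are not given in the sources used here. The deposited values, treated as a score rather than as counts, are reads per gene scaled to 20000000 per library and rounded to whole numbers, with library totals of 19963628 to 20164600. Columns carry no replicate numbers, so libraries were mapped to groups only and named in table order.

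The test covered genes that reached 60 in 2 or more libraries, leaving out 4131 rows named for clones. Limma 3.58.1 with trend (R 4.3.3) was fitted on log2(value + 5) to all 8 libraries with 1 coefficient per group, with Benjamini-Hochberg adjustment over 12816 genes and a threshold of 0.05. The variance of each gene was drawn towards the trend over all genes, with 12.3 prior degrees of freedom. Fold changes are on the log2(value + 5) scale, which understates the change of low genes. The study's own test used raw counts, and its fold threshold was applied as a second count. Recovered reads are each value divided by the step between the low values of its library. The script was tested on simulated data. Alternatives were other pseudocounts, filters and scalings, limma-voom, the 4 libraries compared alone and each library left out.

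Named genes are the members that passed in any comparison, all heat-inducible members, Hspa8, Hsp90ab1, Hspa5, Hsp90b1, Hspa9, Hspd1 and Hspe1, and the leading passing genes of the other lists. Hspa2, Hspa4, the untested small heat shock proteins, Dnaja3, Dnajb6, Dnajc9, Dnajc11, Dnajc19, Jun, Nr4a1, Egr1 and Cct4 were added after their values were seen. Members and lists were chosen with earlier results of these data known. Exon positions and overlaps come from GENCODE M21 (GRCm38). Counts for each chaperone class and each list outside the members were also recomputed under the alternatives, a step chosen after seeing the data.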

Additional observations from a re-analysis of the deposited data

How the results depend on the processing

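No paired analysis was possible without assuming which column belongs to which sample title, because the columns carry no replicate numbers. The titles number the libraries 1 and 2 in every group, and do not say what a shared number stands for. A fit with that number as a block, with columns matched to titles by table order, was not run. Its effect on the calls is therefore not known. Over the 58 tested chaperone genes and the alternatives that could be fitted, 339 called values kept their call and 52 lost it, 66 values not called gained one, and 0 called values changed sign. For CD70Tg against control in Tregs (0 higher, 2 lower), the total was 0 with a log2 fold change beyond 1 (0 lower), 0 with no minimum value (0 lower), 1 with limma-voom (1 lower, 1.72% against 1.97% of all genes) and 8 with the 4 libraries compared alone (2 higher, 6 lower, 14.0% against 13.6%). Leaving out 1 library gave totals of 0 to 5 (0 to 1 higher, 0 to 5 lower), with 0 without either CD70Tg Treg library or the first control Treg library, and 5 without either CD70Tg Tconv library. In Tconvs (2 higher, 0 lower), the total was 0 with a log2 fold change beyond 1 (0 higher), 0 with no minimum value (0 higher), 4 with upper-quartile scaling (2 lower) and 8 with limma-voom (6 higher, 2 lower, 13.8% against 15.7% of all genes), and 1 was lower with median-of-ratios scaling. Leaving out 1 library gave totals of 0 to 8 (0 to 7 higher, 0 to 1 lower), with 0 without the deeper CD70Tg Tconv library, 8 without the other and 1 without the first control Tconv library. Between control Tregs and control Tconvs (8 higher, 11 lower), the total was 5 with a log2 fold change beyond 1 (3 higher, 2 lower), 5 were higher with no minimum value, and 22 were lower with median-of-ratios and 18 with upper-quartile scaling. Leaving out 1 library gave 12 to 23 (5 to 12 higher, 7 to 11 lower). The difference between responses had 0 calls under every alternative run. The loss of calls with no minimum goes with 26467 genes tested in place of 12816; the cause of the other shifts was not tested. The minimum value left low chaperone genes such as Hspa1a, Hspa1b and Hspb1 untested, and 2 libraries per group with at most 4550000 reads in a Treg library limit what can be said of them.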

Other observations

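The 12 rows named as pseudogenes of heat shock or DnaJ genes, which were not among the 74 genes, were near 0 with 1 exception. Hspd1-ps3, a retrocopy of Hsp60, had values of 8 and 9 in control Tconvs, 6 and 4 in CD70Tg Tconvs, 30 and 62 in control Tregs and 63 and 49 in CD70Tg Tregs, with all 4 Treg values above all 4 Tconv values. The other 11 rows reached at most 9 in any library. Reads of Hspd1 and of this retrocopy could not be told apart here over shared stretches, and no test was run.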
